A study of Saccharomyces cerevisiae with 24 samples.

Results

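The 160 open reading frames described here are yeast genes that carry only a systematic name in the deposited count table and that differed at least 2-fold between wild-type cells held for 72 h in calcium chloride and the same cells before treatment. They were chosen by that ratio: a reading frame had to have no standard name in the table, a mean of at least 5 CPM (read counts scaled to the library total) over the 24 libraries, and a mean CPM in WT at 72 h that was at least 2 times, or at most 0.5 times, the WT mean at 0 h. Of the 7126 genes counted, 1638 were unnamed open reading frames, 589 of these reached the minimum level, and 160 passed the ratio (3 others were left out beforehand), 132 on the high side and 28 on the low side. The WT values at 72 h and 0 h therefore describe the members and support nothing, and tests were kept to comparisons that do not use that ratio.

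The study followed haploid budding yeast, Saccharomyces cerevisiae of the BY4741 background, in medium made to 200 mM CaCl2 and diluted every 12 h so that growth stayed logarithmic. The cnb1Δ strain (MATa his3Δ1 ura3Δ0 leu2Δ0 lys2Δ0 cnb1Δ::KanMx) lacks CNB1. The WT strain has the same genotype with CNB1 intact, and both strains carry HYG-TEFp-GFP(Y66F), inserted on chromosome VI, and grew in synthetic media whose nitrogen source was ammonium chloride. Each strain was sampled at 0 h, without CaCl2, and after 12, 48 and 72 h, with 3 libraries per strain and time, and later cultures without CaCl2 were not analysed here, so time in culture and time in calcium cannot be told apart. The design text calls these triplicate time courses without saying whether each began from a separate colony, so p-values measure the spread between these libraries.

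CNB1 encodes the regulatory subunit of calcineurin, the calcium- and calmodulin-activated protein phosphatase. In yeast, calcineurin removes phosphate from the transcription factor Crz1, which then enters the nucleus and binds calcium-responsive promoter elements. A systematic name such as YPL277C gives the chromosome by letter, the arm (L or R), a running number and the coding strand (W or C), and it stays the sole name of a gene until a function or a standard name is assigned. Some unnamed reading frames encode conserved enzymes, others are small or lie across a better-known gene and may encode no protein.

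The RefSeq annotation of build R64 listed 133 of the 160 members and did not list 27. It gave a standard symbol to 36 of the 133, such as CIP1 for YPL014W and CIS1 for YLR346C, and noted 91 as uncharacterized or hypothetical. Members without a RefSeq entry made up 16.9% of the 160, against 5.13% of the 429 unnamed reading frames that reached the minimum level but not the ratio, and 0.203% of the 983 named genes that passed the same ratio. The 27 are described apart from the 133.

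Start regions of 5 members are printed because they show which of the searched motifs lie near the genes that the results turn on. Each runs from 250 bases before the start of the RefSeq gene to 50 bases after it, 5′ to 3′ on the coding strand, and was read from the RefSeq genome of build R64. Capitals mark matches on either strand to the motifs searched.
YPL277C, chrXVI:16819-17118, minus strand: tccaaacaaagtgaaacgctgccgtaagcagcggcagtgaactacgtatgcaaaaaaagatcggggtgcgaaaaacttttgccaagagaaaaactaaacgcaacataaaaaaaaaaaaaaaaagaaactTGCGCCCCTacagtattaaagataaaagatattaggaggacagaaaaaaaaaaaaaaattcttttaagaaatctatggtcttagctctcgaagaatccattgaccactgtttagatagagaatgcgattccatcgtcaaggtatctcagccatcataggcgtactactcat
YOR389W, chrXV:1073963-1074262, plus strand: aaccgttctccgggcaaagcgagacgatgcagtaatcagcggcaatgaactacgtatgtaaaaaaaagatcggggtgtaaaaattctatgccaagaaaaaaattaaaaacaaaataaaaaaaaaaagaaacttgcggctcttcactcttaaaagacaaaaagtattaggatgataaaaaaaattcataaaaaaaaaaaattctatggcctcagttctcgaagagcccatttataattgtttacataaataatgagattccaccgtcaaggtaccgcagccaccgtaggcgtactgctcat
YBR085C-A, chrII:419115-419414, minus strand: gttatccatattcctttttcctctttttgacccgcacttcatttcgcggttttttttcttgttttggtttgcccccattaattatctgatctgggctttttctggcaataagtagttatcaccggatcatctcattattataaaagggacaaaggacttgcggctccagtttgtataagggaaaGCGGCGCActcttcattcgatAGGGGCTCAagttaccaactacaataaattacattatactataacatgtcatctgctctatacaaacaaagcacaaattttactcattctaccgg
YNL208W, chrXIV:254168-254467, plus strand: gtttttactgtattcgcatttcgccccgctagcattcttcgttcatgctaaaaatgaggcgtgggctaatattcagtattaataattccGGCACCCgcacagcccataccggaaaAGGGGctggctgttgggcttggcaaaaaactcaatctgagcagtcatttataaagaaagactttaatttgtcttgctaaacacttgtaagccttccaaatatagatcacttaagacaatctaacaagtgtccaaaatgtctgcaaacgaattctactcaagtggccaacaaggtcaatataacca
CIP1, chrXVI:527297-527596, plus strand: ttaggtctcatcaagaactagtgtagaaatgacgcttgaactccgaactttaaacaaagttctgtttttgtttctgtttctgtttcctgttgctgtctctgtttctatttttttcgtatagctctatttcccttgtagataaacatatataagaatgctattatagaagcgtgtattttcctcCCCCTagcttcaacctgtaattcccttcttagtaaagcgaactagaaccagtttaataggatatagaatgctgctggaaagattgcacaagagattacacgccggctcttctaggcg
YPL277C and YOR389W are near-identical inside the genes (96.9% over 1371 aligned bases), whereas their start regions aligned at 77.6% over 299 positions, and only the YPL277C region held a Crz1 motif (GNGGCTCA or GNGGCGCA), which there overlaps a stress response element (AGGGG). YBR085C-A held 2 Crz1 motifs, 66 and 44 bases before its start, the nearer of which overlaps a stress response element. The YNL208W region held an Aft1 motif (TGCACCC or GGCACCC) and a stress response element, and the CIP1 region a stress response element on its other strand.

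Across the start regions of the 133 listed members, AGGGG was present in 31 of 108 high members (28.7%) and 12 of 25 low members (48%), and in 21.6% of all 6019 start regions of the same length. The Crz1 motif was found in 3 high members (2.78%), YPL277C, YBR085C-A and YOR385W, and in 1 low member (4%), FMP42 (YMR221C), against 1.89% of all regions. Shares for high members, low members and all regions were 2.78%, 0 and 2.34% for the Aft1 motif, 2.78%, 8% and 7.48% for the Ste12 motif (TGAAACA), 0.926%, 4% and 2.92% for the Pho4 motif (CACGTG), 1.85%, 4% and 1.21% for the Pdr1/Pdr3 motif (TCCGNGGA), and 5.56%, 0 and 8.02% for the Gcn4 motif (TGACTC). These counts describe letters and are no evidence of binding.

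The libraries held 18843220 to 22250806 counted reads. CNB1 itself had 0 to 23 reads in the 12 cnb1Δ libraries and 996 to 3320 reads in the 12 WT libraries, as the labels require. Summed CPM of 6 MATa-specific genes, all detected, was 650 to 945 at 72 h against 2304 to 2492 at 0 h in cnb1Δ, and 323 to 388 at 72 h against 2373 to 2785 at 0 h in WT. The 4 MATα-specific genes summed to 28.2 to 31.6 CPM in cnb1Δ and 25.5 to 26.1 CPM in WT at 72 h, and no marker of the 3 lists (8 meiosis genes were the third) was at 0 in all libraries. The part of these marker levels in the members' changes was not tested. Among the 108 high members listed in RefSeq, the first library was the highest of 3 for 79 in cnb1Δ and 102 in WT at 48 h. At 72 h it was so for 89 in cnb1Δ and 84 in WT, whose libraries helped choose the members. The share of all genes is not given. By chi-square per degree of freedom, the first library stood apart in WT at 48 h (324 and 230, against 39.8 between the others). It also did in cnb1Δ at 72 h (163 and 164, against 29.5). The gap was smaller in WT at 72 h (121 and 73.9, against 69.5) and cnb1Δ at 48 h (95.7 and 62.4, against 60.1). In bulk RNA, fewer cells that express a gene and less RNA per cell cannot be told apart.

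Below, levels are scaled CPM (CPM on library sizes scaled by TMM, the trimmed mean of M-values), listed by replicate from 1 to 3, and differences are log2 fold changes with their standard error (SE) from edgeR's quasi-likelihood test, with p-values adjusted over all genes tested by the Benjamini-Hochberg method. All 160 members passed the filter on low counts. The rule used library totals: with TMM-scaled library sizes it would give 86 high and 53 low members, of which 114 are among the 160.

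At the edges of the ratio, the 3 members just inside the high side were YJR142W at 2.01, YIR016W at 2.03 and YDR239C at 2.03, and the 3 reading frames just outside were YHR127W at 1.998, YMR196W at 1.996 and YKR075C at 1.996. On the low side YDL199C at 0.4996, YLR112W at 0.496 and YGL204C at 0.475 were inside, and YPR172W at 0.506, YBR225W at 0.511 and YHR078W at 0.518 were outside. The highest ratios were 96.0 for YMR317W, 57.3 for YPR145C-A, 25.3 for YPL277C, 24.9 for YHL046W-A and 21.0 for YPL278C, and the lowest were 0.144 for both YDR133C and YDR134C, 0.155 for CIP1, 0.161 for NFG1 and 0.188 for YDL241W. By mean TPM (transcript abundance scaled for gene length and library total) the members spanned 1.11 to 613 with a median of 22.6, and the most abundant were YDR134C at 613, YNL208W at 558, YBR085C-A at 355, YGL039W at 299 and YDR476C at 277 TPM.

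The change in the mutant was asked first, since the cnb1Δ libraries played no part in the ratio, though they entered the minimum mean CPM. At 72 h against 0 h in cnb1Δ, 95 of the 132 members that were high in WT rose and 4 fell, while 26 of the 28 low members fell and none rose (edgeR, adjusted p under 0.05). Over all 6253 genes tested, 31.6% rose and 28.0% fell. Named genes past the same ratio gave 668 of 754 high genes risen and 222 of 229 low genes fallen. The 108 high members that RefSeq lists had 91 risen and none fallen at a median log2 difference of 0.90, against 4 risen and 4 fallen among the 24 high members it does not list, at a median of -0.53, and the median of all genes was 0.05. Counts without the first replicates at 48 h and 72 h were 97 members risen and 29 fallen.

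**Figure D1:**
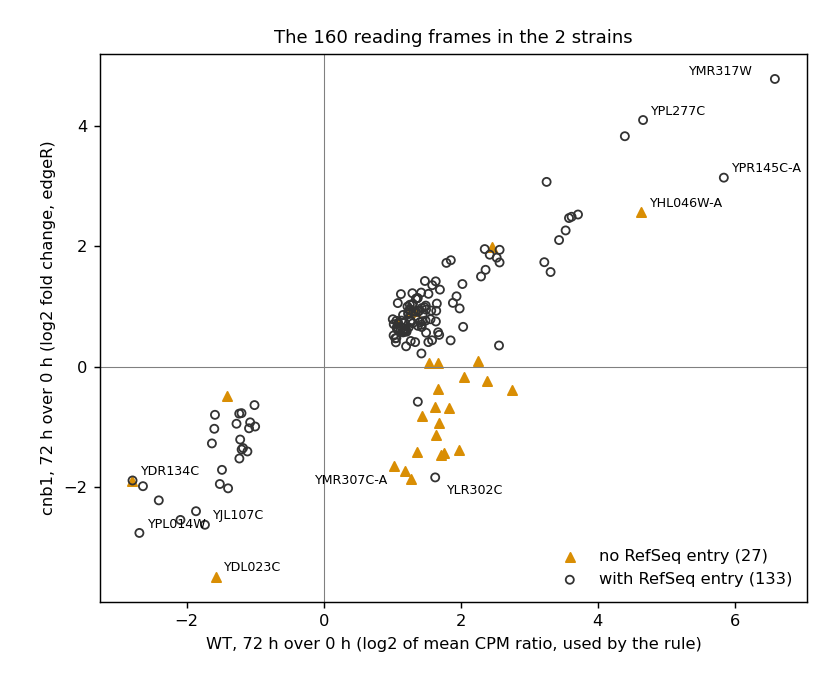
Each point is 1 of the 160 reading frames. The vertical axis is its log2 fold change in cnb1Δ at 72 h over 0 h from edgeR and the horizontal axis is the log2 ratio of mean CPM in WT that the rule used, which is why no point lies between -1 and 1 there. Members with a RefSeq entry (circles) lie mostly in the upper right and lower left, and most of those without one (triangles) lie below 0 in cnb1Δ although they are high in WT.

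At the earlier times in cnb1Δ the high members had median log2 differences of 0.52 at 12 h and 0.70 at 48 h, beside 0.77 at 72 h. At 48 h against 0 h, 92 high members rose and none of the 132 fell, while 25 of the 28 low members fell, against 28.9% of all genes risen and 26.4% fallen. At 12 h, 67 high members rose and 1 fell, and 21 low members fell, against 22.1% and 20.2% of all genes. With library totals in place of TMM the 12 h counts were 81 risen and 14 fallen members, and without the first cnb1Δ library at 0 h 43 members rose. The 3 comparisons share the cnb1Δ libraries at 0 h. By group means, 88 of the 108 listed high members were highest at 72 h in cnb1Δ and 95 in WT, and all 25 listed low members were highest at 0 h in both strains.

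YMR317W, an uncharacterized gene 13645 bases from the right end of chromosome XIII (907364 to 910786, plus strand), had the highest fold change in cnb1Δ. It was at 10.03, 8.62 and 8.91 scaled CPM at 0 h in cnb1Δ, at 28.5, 22.1 and 32.2 at 12 h, at 331, 60.8 and 133 at 48 h, and at 517, 79.8 and 161 at 72 h. In WT it was at 8.23, 6.05 and 5.41 at 0 h, at 147, 163 and 99.2 at 12 h, at 781, 102 and 370 at 48 h, and at 769, 286 and 461 at 72 h. Every treated library lay above every 0 h library in both strains, and the late first replicates were the highest. The log2 difference in cnb1Δ at 72 h over 0 h was 4.78 (SE 0.76, adjusted p = 3.4e-05 by edgeR) and fell to 3.71 without the first cnb1Δ library at 72 h.

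YPR145C-A, a reading frame of 237 bases on chromosome XVI (824690 to 824926, minus strand), had the widest strain difference of any member at 12 h. In cnb1Δ it had 2.21, 2.33 and 2.61 scaled CPM before treatment, 2.37, 3.29 and 2.75 after 12 h, 24.9, 8.62 and 7.89 after 48 h, and 39.7, 11.5 and 11.7 after 72 h. In WT it had 2.90, 3.26 and 2.68 before treatment, 56.5, 60.9 and 50.5 after 12 h, 163, 18.4 and 73.5 after 48 h, and 195, 49.3 and 164 after 72 h. The strains overlapped at 48 h and lay far apart at 12 h. It rose in cnb1Δ by 3.14 at 72 h over 0 h (SE 0.72, adjusted p = 0.001 by edgeR), or by 2.29 without the first 72 h library. The change in cnb1Δ at 12 h was 0.24 (SE 0.79, adjusted p = 0.83), which did not pass the test.

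YPL277C and YPL278C lie 49 bases apart on chromosome XVI, and YOR389W lies near the right end of chromosome XV. RefSeq notes copper-regulated expression for the 3 genes and no function. In cnb1Δ YPL277C rose by 4.10 at 72 h over 0 h (SE 0.42, adjusted p = 3.3e-07 by edgeR), with 114, 61.1 and 53.2 scaled CPM against 4.99, 4.36 and 3.92. YOR389W rose by 3.07 (SE 0.24, adjusted p = 1.8e-08), with 180, 113 and 114 scaled CPM against 15.8, 17.7 and 14.97. YPL278C matched part of YOR389W at 99.7% identity over 303 bases, and how the deposited counts treat reads that match both is not given in the sources used here, so the 3 sets of values may not be separate. The strains did not differ beyond the test for YPL277C at 12 h (-0.45, SE 0.36, adjusted p = 0.44) or 48 h (-0.16, SE 0.35, adjusted p = 0.90).

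Among members with a group mean of at least 20 scaled CPM in this comparison, others of the 10 with the highest fold change in cnb1Δ at 72 h were YOR338W, CIS1, NNR2, YHL050C, YNL162W-A and YNL208W. YOR338W, whose transcription RefSeq notes as dependent on the regulator Azf1, was at 108, 109 and 97.8 scaled CPM at 72 h against 15.6, 22.8 and 18.3 at 0 h, a log2 difference of 2.47 (SE 0.19). NNR2, a dehydratase that repairs hydrated NADH, rose by 1.94 (SE 0.38), and YNL162W-A, a short reading frame known only from homology, rose by 1.77 (SE 0.16). YHL050C, within 445 bases of the left end of chromosome VIII, rose by 1.86 (SE 0.34), or by 2.51 without the second cnb1Δ library at 0 h, which held 18.4 scaled CPM beside 6.51 and 7.19 in the others.

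**Figure D2:**
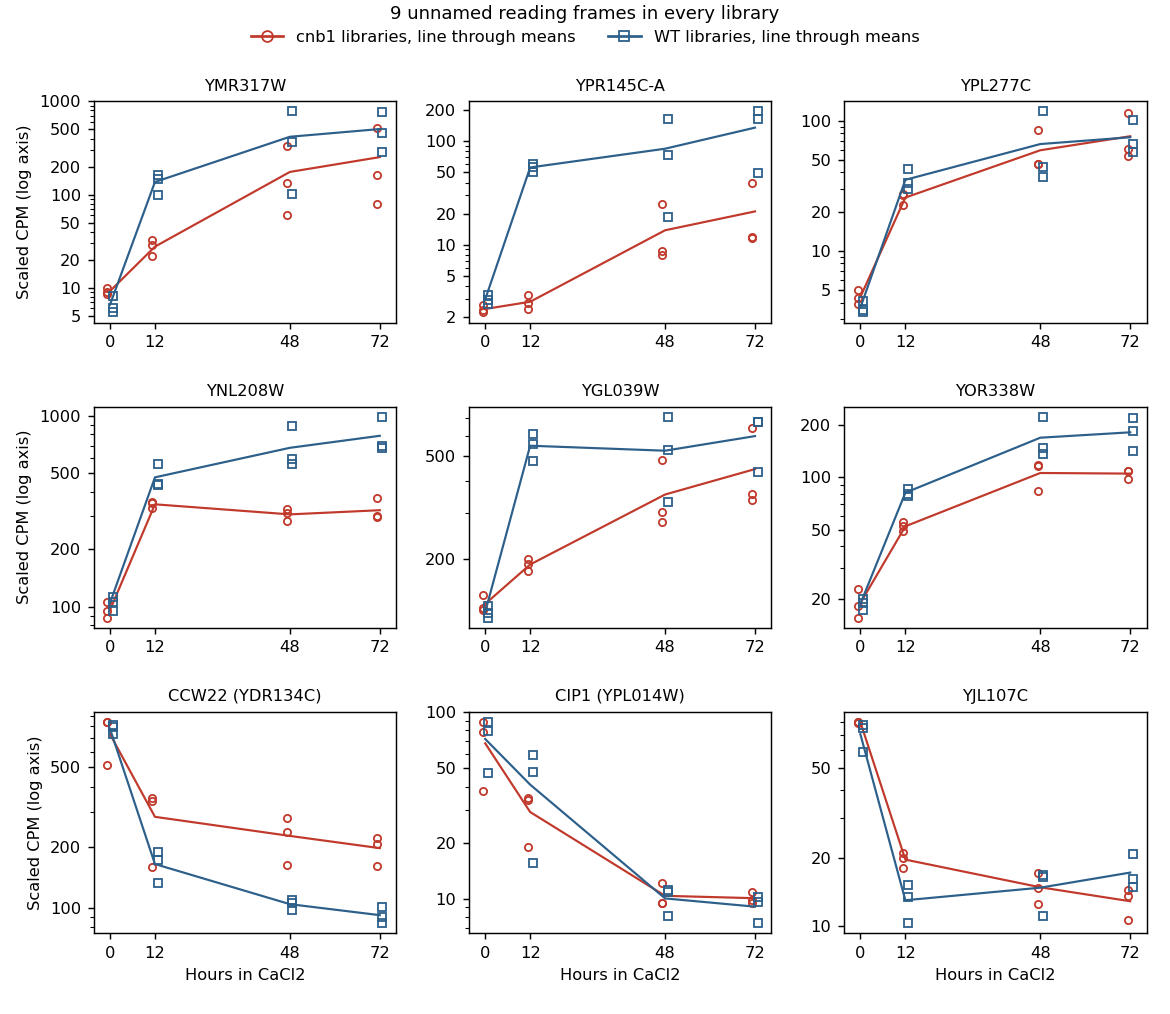
Scaled CPM on a log axis against hours in CaCl2 for 9 members. Circles are the cnb1Δ libraries, squares the WT libraries, and each line joins the means of 3 libraries. YPR145C-A is flat in cnb1Δ at 12 h, between 2.37 and 3.29, where the WT libraries lie between 50.5 and 60.9.

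Among members that fell in cnb1Δ, CIP1 encodes an inhibitor of the G1 cyclin-dependent kinase Cdc28 bound to Cln2. It had 9.50, 9.79 and 10.9 scaled CPM at 72 h against 88.4, 37.7 and 78.6 at 0 h, with no overlap, and fell by 2.76 (SE 0.39, adjusted p = 9.1e-06 by edgeR). The second replicate was the lowest of 3 at 0 h and 12 h in both strains, at 18.9 in cnb1Δ and 15.5 in WT at 12 h. YNR014W and YJR115W showed the same low second replicate at 0 h in cnb1Δ, with 10.6 beside 33.0 and 29.2 for YNR014W and 13.7 beside 31.0 and 31.8 for YJR115W. YNR014W, noted in RefSeq as cell-cycle regulated, fell by 2.55 (SE 0.52), and YJR115W, a paralog of ECM13, fell by 2.40 (SE 0.28).

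YJL107C, whose expression RefSeq notes as induced through the Hog1 osmotic-stress kinase, had 10.7, 14.5 and 13.6 scaled CPM at 72 h against 79.8, 79.2 and 79.95 at 0 h in cnb1Δ. It fell by 2.63 (SE 0.18, adjusted p = 3.4e-09 by edgeR) and was already at 19.95, 21.1 and 18.1 at 12 h. It overlaps YJL108C on the same strand, so reads of the 2 may be mixed. MYG1, a copper-responsive gene linked to mitochondrial function, fell by 2.02 (SE 0.37), and YDR222W, of unknown function, fell by 1.95 (SE 0.29).

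CCW22 (YDR134C), annotated as a pseudogene and a paralog of the cell wall mannoprotein gene CCW12, was the most abundant member. In cnb1Δ it had 843, 511 and 844 scaled CPM before treatment, 340, 159 and 351 after 12 h, 239, 164 and 281 after 48 h, and 208, 162 and 223 after 72 h. In WT it had 793, 735 and 812 before treatment, 173, 132 and 190 after 12 h, 97.7, 105 and 109 after 48 h, and 83.9, 90.2 and 101 after 72 h. Every treated library lay below every untreated one of its strain, and from 48 h on the cnb1Δ libraries lay above those of WT. It fell in cnb1Δ by 1.89 at 72 h over 0 h (SE 0.25, adjusted p = 5.3e-06 by edgeR). YDR133C, the next lower number with the same strand letter and not listed in RefSeq, had its 8 group means in the same order and fell by 1.91 (SE 0.26).

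The strains were compared at 12 h and 48 h, times that the ratio did not use. Their libraries did enter the minimum mean of 5 CPM, which a member could pass through its treated libraries. At 12 h, 1 of the 132 high members was higher in cnb1Δ than in WT and 15 were lower (11.4%), while 7 of the 28 low members were higher and none lower. Over all genes 8.43% were higher and 6.96% lower in cnb1Δ, and among named genes past the same ratio 12.3% of 754 high genes were lower and 21.8% of 229 low genes higher. With library totals the counts over all members were 9 higher and 8 lower, in place of 8 higher and 15 lower. Without the late first replicates, which are not among the 12 h libraries, they were 21 higher and 29 lower. Those replicates can enter through the shared filter, scaling and estimate of spread, and the part of each was not tested. At 48 h, 4 members were higher in cnb1Δ and 6 were lower, against 2.70% and 2.19% of all genes, and library totals gave 4 and 4. Leaving out single libraries moved these counts, in fits that also had fewer libraries. At 12 h 4 to 5 members were higher without the first cnb1Δ library, the first WT library or the third WT library. At 48 h 2 to 7 were higher and 2 to 10 lower over the 6 fits that left out 1 library. With the replicate number as a block, for which the 48 h libraries qualified, 7 members were higher and 10 lower.

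YPR145C-A was the member with the widest gap at 12 h, at 2.37, 3.29 and 2.75 scaled CPM in cnb1Δ against 56.5, 60.9 and 50.5 in WT. The log2 difference was -4.32 (SE 0.71, adjusted p = 0.00038 by edgeR), and at 48 h it was -2.62 (SE 0.63, adjusted p = 0.017) although the highest cnb1Δ library, at 24.9, passed the lowest WT library, at 18.4. YMR317W differed at 12 h by -2.31 (SE 0.67, adjusted p = 0.024), but the call was lost in 5 of the 6 fits that left out 1 of the 6 libraries compared, with adjusted p between 0.053 and 0.10. At 48 h its difference of -1.26 (SE 0.64, adjusted p = 0.34) did not pass.

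YGL039W, an aldehyde reductase, had 191, 180 and 200 scaled CPM in cnb1Δ at 12 h against 480, 607 and 558 in WT. The groups did not overlap, and the difference was -1.53 (SE 0.26, adjusted p = 0.0006 by edgeR). YDR061W, similar to ABC transporters and noted as activated by the drug-resistance regulator Yrm1, had 41.2, 32.6 and 36.0 in cnb1Δ against 88.3, 105 and 99.5 in WT, a difference of -1.41 (SE 0.17). YMR181C, which is transcribed together with RGM1, differed by -0.98 (SE 0.19). YDR476C, an endoplasmic reticulum protein of unknown function that was singled out after its values were seen, differed by -0.81 (SE 0.15, adjusted p = 0.00088).

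Higher in cnb1Δ at 12 h was YBL086C, a protein of the cell periphery, with 24.4, 22.8 and 24.3 scaled CPM against 9.87, 6.10 and 8.79 in WT (log2 difference 1.53, SE 0.21, adjusted p = 7.5e-05 by edgeR). YGR266W, a membrane protein of mitochondria and the plasma membrane, differed by 0.86 (SE 0.18), and both genes belong to the low members. NFG1, a negative regulator of the filamentous growth pathway and singled out after its values were seen, had 19.5, 16.0 and 18.9 in cnb1Δ against 5.49, 2.29 and 5.50 in WT, below the level of 20 set for naming a strain difference, and differed by 2.04 (SE 0.37, adjusted p = 0.00084). YER152C, a 2-aminoadipate transaminase, was the 1 high member that was higher in cnb1Δ, at 106, 115 and 102 against 62.8, 53.5 and 66.7 in WT.

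At 48 h the difference of largest size with no overlap among the lower members was that of YNL208W, with 324, 309 and 282 scaled CPM in cnb1Δ against 886, 563 and 593 in WT (log2 difference -1.16, SE 0.17, adjusted p = 0.0003 by edgeR). YNL208W was at 348, 331 and 354 in cnb1Δ at 12 h and at 371, 298 and 294 at 72 h. The WT libraries at 72 h held 992, 675 and 694, but these are among the values that chose YNL208W. NCW2, a GPI-anchored protein of the cell wall, differed by -0.81 at 48 h (SE 0.18, adjusted p = 0.0091), with 42.1, 47.3 and 44.8 in cnb1Δ against 91.4, 61.8 and 82.6 in WT, and its adjusted p was 0.058 without the late first replicates. YOR338W differed by -0.67 (SE 0.18, adjusted p = 0.03), and by -0.42 with an adjusted p of 0.10 without the first WT library at 48 h.

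CCW22 was higher in cnb1Δ than in WT at 48 h by 1.13 (SE 0.25, adjusted p = 0.01 by edgeR) and YDR133C by 1.03 (SE 0.26, adjusted p = 0.026). Without the late first replicates the adjusted p was 0.0549 for CCW22 and 0.12 for YDR133C. DPC29, a mitochondrial translation factor, was higher by 0.54 (SE 0.12, adjusted p = 0.0089), at 31.5, 33.4 and 30.5 in cnb1Δ against 22.8, 19.8 and 23.2 in WT.

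**Figure D3:**
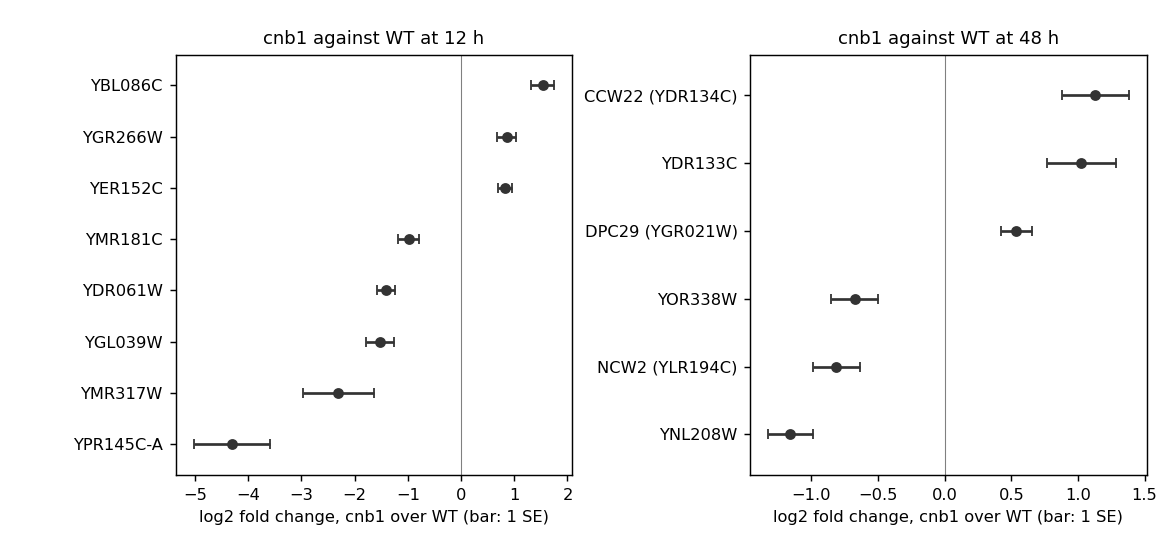
Log2 fold change of cnb1Δ over WT at 12 h (left) and 48 h (right) for the members named by rule in these comparisons, with bars of 1 SE. YPR145C-A lies farthest from 0, at -4.32 at 12 h, and the 6 members named at 48 h lie between -1.16 and 1.13.

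From 12 h to 48 h in WT, 10 of the 132 high members rose (7.58%) and 1 fell, and 2 of the 28 low members fell (7.14%). Over all genes 2.38% rose and 2.88% fell. Among named genes past the same ratio 11.9% of 754 high genes rose and 19.7% of 229 low genes fell. The member counts changed when single libraries were left out. Only 2 members rose without the first library at 12 h, the third at 12 h or the first at 48 h. Without the second library at 48 h, 48 rose and 7 fell. Each of these fits also had fewer libraries, and the part of that was not tested. YOR338W rose by 1.05 (SE 0.18, adjusted p = 0.0042 by edgeR), at 223, 136 and 147 scaled CPM at 48 h against 85.9, 78.1 and 80.2 at 12 h, and YNL162W-A rose by 1.03 (SE 0.16). ANK1, an ankyrin repeat protein, rose by 0.61 (SE 0.12), the methionine sulfoxide reductase gene YKL069W by 0.49 (SE 0.11) and the nuclear protein gene YPL068C by 0.49 (SE 0.14); all 3 lost the call when the first WT library at 48 h was left out. CIP1 fell by 2.03 (SE 0.38), or by 1.66 with an adjusted p of 0.067 without the third WT library at 12 h, and YDR061W fell by 0.92 (SE 0.17).

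From 12 h to 72 h in cnb1Δ, 54 of the 132 high members rose (40.9%) and 17 fell (12.9%), and 7 of the 28 low members fell (25%). Over all genes 10% rose and 10.3% fell. Among named genes past the same ratio 32.2% of 754 high genes rose and 2.25% fell, and 51.1% of 229 low genes fell. Without the first cnb1Δ library at 72 h 21 members rose, as did 24 without the first and 21 without the third at 12 h. Of the 17 high members that fell, 15 have no RefSeq entry. YGL039W rose by 1.23 (SE 0.26, adjusted p = 0.0046 by edgeR), with 641, 339 and 357 scaled CPM at 72 h against 191, 180 and 200 at 12 h. YMR317W rose by 3.19 (SE 0.70) and by 2.13 without the first 72 h library. YPR145C-A rose by 2.90 (SE 0.70), and its adjusted p was 0.065 without that library, as was that of YPL277C at 0.051.

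The 27 members without a RefSeq entry have no coordinates in the annotation used here, and their place is known only from their systematic names. For 25 of them a gene with the same or an adjacent number carries the other strand letter. Where several did, the gene with the highest mean TPM was taken as the neighbour, which favours a high level. For 22 of the 25 that gene had at least 5 times the member's mean TPM, and no such share is given for other reading frames. Neighbours included PGK1 beside YCR013C, GPM1 beside YKL153W, GAS1 beside YMR307C-A, SSB1 beside YDL228C and RPL36B beside YPL250W-A, genes of glycolysis, cell wall assembly, protein folding and the ribosome that are highly expressed in growing yeast. Whether the deposited counts used strand is not given in the sources used here, so reads of a member and of an opposite gene that overlaps it may not be separated.

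YCR013C had 14.5, 34.0 and 12.4 scaled CPM in cnb1Δ at 72 h, against 81.9, 36.9 and 43.6 at 0 h, and the change of -1.42 (SE 0.60, adjusted p = 0.049 by edgeR) lost the call in 4 of the 6 fits that left out 1 of these libraries, with adjusted p up to 0.21. In WT its values were 23.2, 54.0 and 26.1 at 72 h against 33.7, 12.2 and 3.48 at 0 h, which overlap. YMR307C-A, YDL228C and YKL153W were the other high members that fell in cnb1Δ at 72 h, by 1.87 (SE 0.66), 1.74 (SE 0.68) and 1.64 (SE 0.61), and each lost the call when the first or the third 72 h library was left out. At 12 h YMR307C-A stood at 79.6, 44.2 and 108 in cnb1Δ and at 153, 80.6 and 65.6 in WT. In reads, cnb1Δ had 1748, 1022 and 2283 at 12 h against 315, 1273 and 741 at 48 h. WT had 3179, 1757 and 1314 reads at 12 h against 1001, 2036 and 1445 at 48 h. The highest single library was at 12 h in both strains, but the 12 h and 48 h libraries overlapped.

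The 27 had a wider median spread between replicates than the 133 listed members in 7 of the 8 groups. WT at 48 h was the exception, at a median ratio of the highest to the lowest library of 1.39 against 1.85. For the 27 that ratio was 2.87 in cnb1Δ and 2.09 in WT at 72 h, and 1.36 in cnb1Δ and 6.90 in WT at 0 h, against 1.48, 1.41, 1.18 and 1.18 for the 133 listed members in the same groups. Their summed level was 240, 304 and 160 CPM in cnb1Δ and 274, 433 and 246 CPM in WT at 72 h, and 395, 303 and 324 CPM in cnb1Δ and 272, 175 and 140 CPM in WT at 0 h. The third WT library at 0 h was the lowest of all 24 for 20 of the 27, and it is part of the denominator by which the members were chosen. Without it the rule gave 152 of the same 160 reading frames. The members lost included YKL153W, YDL228C, YMR307C-A and YCR013C, which are the high members that fell in cnb1Δ at 72 h. Their place on the high side therefore depends on that library, but not on it alone. The second WT library at 72 h, in the numerator, held 906, 288, 1146 and 1223 reads of these 4 in that order. The first held 473, 112, 404 and 559, and the third 347, 102, 401 and 587. That second library was the highest of 3 for 21 of the 24 high members without a RefSeq entry.

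Reads per 1000 reads of the opposite neighbour were taken for the 22 pairs. Their median was 9.79, 8.31 and 7.83 in cnb1Δ and 6.81, 2.61 and 0.755 in WT at 0 h. It was 19.0, 17.3 and 25.9 in cnb1Δ and 25.1, 15.4 and 13.3 in WT at 12 h. At 48 h it was 6.02, 18.2 and 9.67 in cnb1Δ and 15.4, 18.5 and 16.3 in WT, where the 12 h and 48 h values overlapped. At 72 h it was 4.72, 6.98 and 2.67 in cnb1Δ and 6.88, 12.3 and 5.90 in WT. The third WT library at 0 h had the lowest ratio of the 24 for 21 of the 22 pairs, and the first WT library at 12 h the highest for 17. The WT libraries at 0 h also entered the rule. Unnamed reading frames without a RefSeq entry that are not members had their lowest and highest summed level in the same 2 libraries. It was 533 CPM in the third WT library at 0 h and 1052 CPM in the first at 12 h, so the pattern is not particular to the members. YMR316C-B, set against YMR315W and singled out after its values were seen, went another way, with 24.3, 12.5 and 16.8 reads per 1000 in WT at 12 h against 42.6, 40.4 and 34.1 in WT at 0 h. YLR302C, which RefSeq lists on chromosome XII (732191 to 732553, minus strand) across YLR303W on the other strand, was likewise lowest in the third WT library at 0 h, with 24, 69 and 20 reads in cnb1Δ and 29, 172 and 49 reads in WT at 72 h, against 145, 105 and 68 reads in cnb1Δ and 66, 14 and 1 read in WT at 0 h. What sets these ratios was not tested.

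**Figure D4:**
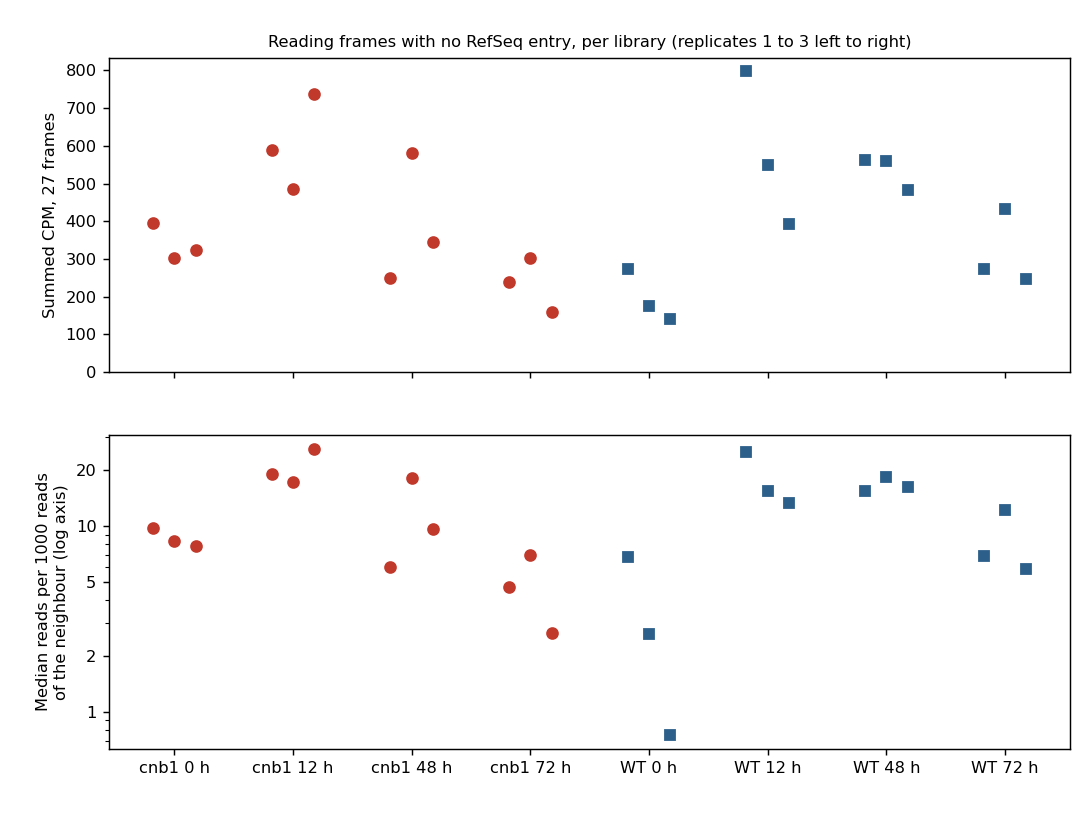
Summed CPM of the 27 members without a RefSeq entry (top) and the median number of their reads per 1000 reads of the opposite neighbour over 22 pairs (bottom, log axis), in each library. The 3 WT libraries at 0 h spread between 0.755 and 6.81 reads per 1000, and the 12 h libraries of both strains are among the highest.

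YHL046W-A, next in number to the siderophore transporter gene ARN2, had the highest ratio of the 27, and YDL023C, next to the glycerol-3-phosphate dehydrogenase gene GPD1, was a low member. YHL046W-A had 6.65, 6.79 and 2.39 scaled CPM at 72 h in cnb1Δ against 1.21, 0.457 and 1.01 at 0 h, a difference of 2.57 (SE 0.58, adjusted p = 0.00095 by edgeR). YDL023C had 1.87, 2.33 and 1.15 at 72 h in cnb1Δ against 25.4, 18.6 and 16.5 at 0 h, and fell by 3.49 (SE 0.63), the largest fall of any member named in that comparison. Its WT values at 0 h were 19.7, 8.07 and 1.88.

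By their RefSeq notes, 4 listed members belong to the drug-resistance genes under Pdr1, Yrm1 or Yrr1, namely CIS1, its paralog YGR035C, YDR061W and the aryl alcohol dehydrogenase gene YPL088W. They did not move alike. CIS1 had 11.8, 35.9 and 28.1 scaled CPM at 72 h in cnb1Δ against 5.15, 6.14 and 4.46 at 0 h and rose by 2.26 (SE 0.52, adjusted p = 0.00098 by edgeR), and in WT its 72 h libraries held 10.7, 17.8 and 60.6. YGR035C stood at 17.2, 50.01 and 44.2 at 72 h in cnb1Δ against 26.9, 26.98 and 28.3 at 0 h, a change of 0.44 (SE 0.37, adjusted p = 0.32) that did not pass, and it was lower at 12 h than at 0 h by -0.99 (SE 0.39, adjusted p = 0.045). YPL088W rose by 1.57 at 72 h (SE 0.27), and in WT at 72 h its libraries held 95.1, 145 and 267, with the third the highest as for CIS1 and YGR035C.

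2 members carry notes that tie them to calcium. RCH1, a plasma membrane regulator of cytosolic calcium noted as a Crz1 target, had 25.5, 18.4 and 16.3 scaled CPM at 72 h in cnb1Δ against 13.7, 13.8 and 10.6 at 0 h, a change of 0.66 (SE 0.32, adjusted p = 0.083 by edgeR) that did not pass. At 12 h it stood at 10.1, 9.39 and 10.9 in cnb1Δ against 22.3, 10.7 and 21.6 in WT (-0.85, SE 0.32, adjusted p = 0.084), and the groups overlap. YER034W, noted as induced by calcium shortage, rose in cnb1Δ at 72 h by 0.75 (SE 0.12, adjusted p = 5.3e-05), and its strain difference at 12 h of 0.06 (SE 0.12) did not pass. YBR085C-A, whose start region held 2 Crz1 motifs, changed by 0.22 at 72 h in cnb1Δ (SE 0.36, adjusted p = 0.61), with 138, 78.5 and 82.1 against 90.8, 80.7 and 84.5, and in WT its 72 h libraries held 225, 136 and 203 against 91.9, 76.9 and 91.1 at 0 h. RCH1, YER034W and YBR085C-A were singled out for their notes or motifs after their values were seen.

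Of the 133 listed members, 7 lay within 15 kb of a chromosome end (5.26%), against 2.70% of the listed unnamed reading frames that missed the ratio and 1.43% of the listed named genes past it. Within 30 kb there were 13 (9.77%), against 7.13% and 4.79%. YEL077C and YPR204W, helicase genes of the telomeric Y′ elements, rose in cnb1Δ at 72 h by 0.76 (SE 0.19) and 0.61 (SE 0.17), and YMR317W is the member of this group with the highest fold change. By their RefSeq notes, 3 of the 133 were Ty retrotransposon genes, against 21 of the 407 listed unnamed reading frames that missed the ratio. The Ty retrotransposon members YOR192C-B, YJL113W and YLR410W-B rose by 1.42 (SE 0.17), 1.499 (SE 0.41) and 1.05 (SE 0.28). All 5 have 2 or more copies elsewhere in the genome, the closest at 96.5% to 99.8% identity, and 10 of the 133 have at least 1 copy of 80% identity or more over at least 0.5 of their length, so their counts may be shared with those copies.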

How the data were processed

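RNA of 24 libraries was measured after polyA enrichment, per the labels' protocols. FeatureCounts, DESeq2 and build R64 stand in the submitters' processing notes, without versions. Aligner, strandedness and multi-mapping reads were not given in the sources used here. Raw counts were deposited by the authors for 7126 genes and TPM for 6744. Columns were matched to samples by title. Members and lists were chosen with earlier results of these data known. Counts were tested with edgeR 4.0.16 (R 4.3.3): TMM scaling, filterByExpr, 1 quasi-likelihood model of 8 group means, Benjamini-Hochberg adjustment over 6253 genes, called at an adjusted p under 0.05. The SE is approximate. The code was tested on simulated data. Named members had a group mean of at least 20 scaled CPM, no overlap between libraries and an adjusted p past the threshold, ranked by fold change; the most extreme ratios and TPM were added as description. The deposited TPM served as log2(TPM + 1) and log2(TPM + 0.1) in limma 3.58.1, beside DESeq2 1.42.0. Copies were found with BLAST 2.17.0. Replicate numbers passed the minimum correlation set for pairing only at 48 h between strains, where same-numbered deviations correlated at 0.569, 0.162 and 0.505. No pair of replicates agreed within sampling noise, at a chi-square of 4.61 or more per degree of freedom.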

Additional observations from a re-analysis of the deposited data

Results flagged for a closer look

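For 12 results every treated library of one strain lay above its own 0 h mean and every library of the other strain below it. The share of all genes that met the same condition is not given here, so this count does not show whether the members stand out. The difference between strains was not tested for these, and its values are the mean log2 change in cnb1Δ minus that in WT. At 72 h it was -2.89 for YDL228C, -2.69 for YLR339C, -2.89 for YCR013C, -2.79 for YEL053W-A, -2.90 for YLR302C and -3.24 for YMR307C-A. It was -2.37 for YPL238C, -2.45 for YGR160W, -2.61 for YLL044W, -1.88 for YER147C-A and -2.92 for YKL153W. All 11 were below 0 h in cnb1Δ. That their WT mean was above it was fixed when they were chosen, since the rule used WT at 72 h over WT at 0 h. That every WT library at 72 h was above it was made likely by this, not fixed. Each 72 h difference subtracts that chosen WT change. YLR302C is listed in RefSeq and the other 10 are not, and all share the third WT library at 0 h, which is low for most of these reading frames. They also share the second WT library at 72 h, the highest of 3 for 21 of the 24 high members without a RefSeq entry. The part of either library was not tested. At 12 h the difference was -0.62 for YHR138C, a gene similar to the protease inhibitor gene PBI2, with 12.8, 13.2 and 14.4 scaled CPM in cnb1Δ against 28.2, 19.2 and 34.1 in WT. The 0 h libraries of YHR138C held 14.3, 14.2 and 15.1 in cnb1Δ and 16.8, 17.7 and 20.5 in WT. The WT mean at 0 h, behind the 12 h difference too, is among the values that chose the members.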

How the results depend on the processing

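Directions did not change: of 1066 alternative fits of 67 named results on 37 members, 974 kept the call, 92 lost it and 0 reversed. Most of these results were chosen in the same data for a call, no overlap between libraries and a large fold change. A reversal was therefore unlikely in advance, and its absence is weak evidence. Among alternative counts of members, 187 stayed within 1.5 times and 48 did not. The cause of the others was not tested, apart from fits with fewer genes or samples. Library totals gave 14 members fallen at 12 h against 0 h in cnb1Δ, and 8 lower in cnb1Δ than in WT at 12 h. Limma on TPM gave 14 fallen at 12 h under each of its 3 settings, 7 lower in cnb1Δ at 12 h (8 with a pseudocount of 0.1), 2 lower at 48 h, and 1 fallen from 12 h to 48 h in WT with a pseudocount of 1. DESeq2 gave 23 lower in cnb1Δ at 12 h, 10 lower at 48 h, and 21 risen and 6 fallen from 12 h to 48 h in WT. Without the late first replicates 21 were higher and 29 lower in cnb1Δ at 12 h. A minimum mean of 10 CPM left 120 members and 14 fallen from 12 h to 72 h in cnb1Δ. Without a minimum level the rule gave 594 members, and with a fold of 3 it gave 62.

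With a replicate block, 23 members were lower in cnb1Δ at 12 h, 7 higher and 10 lower at 48 h, and 21 risen and 7 fallen from 12 h to 48 h in WT. The same block gave 100 risen and 35 fallen at 72 h against 0 h in cnb1Δ. Only in the 48 h comparison of strains did all 3 correlations of same-numbered deviations pass the minimum set for pairing. Elsewhere the paired fit is a description, though some same-numbered libraries did correlate. The values were 0.213, 0.440 and 0.0947 for cnb1Δ at 12 h against 0 h, and 0.138, 0.366 and 0.0149 between strains at 12 h.

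Leaving out single replicates gave these ranges. Members risen and fallen in cnb1Δ against 0 h were 84 to 95 and 24 to 37 at 72 h, 83 to 90 and 24 to 25 at 48 h, and 43 to 52 and 15 to 17 at 12 h. Members higher and lower in cnb1Δ than in WT were 4 to 6 and 10 to 14 at 12 h, and 2 to 7 and 2 to 10 at 48 h. From 12 h to 48 h in WT 2 to 48 rose and 1 to 7 fell, and from 12 h to 72 h in cnb1Δ 21 to 48 rose and 16 to 27 fell. The rule itself gave 143 to 174 members.

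With library totals the median log2 difference of all genes at 72 h against 0 h in cnb1Δ was 0.34, against 0.05 with TMM; the cnb1Δ changes in the report are on the TMM scale.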
